A study of Homo sapiens with 4 samples.

Results

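The 10 genes described here, RB1, CDK2, CDK4, CDK6, CCND1, CCNE1, CCNA2, E2F1, E2F3 and CDKN1B, drive or restrain the passage of a cell from G1 into S phase. They were taken by name from the gene column of a pooled CRISPR-Cas9 knockout screen, where they make up 10 of 19111 genes with counts and 40 sgRNAs, 4 per gene. The screened cells were A549, an established line from a human lung adenocarcinoma, which had taken up the Brunello sgRNA library at a multiplicity of infection of about 0.3 and had been selected for 1 week in 10 µg/ml puromycin. They were then passaged for 3 weeks in 4 µM HQ461, a molecular glue that causes loss of cyclin K, or in 0.1% (v/v) DMSO, its vehicle. The labels name 4 libraries, 2 per condition, but the deposited table has 1 column of read counts per condition, and whether a column holds both libraries or 1 of them is not stated, so every difference below lacks a replicate check and no p-value is given. Each sgRNA directs Cas9 to cut 1 gene, and its read count follows the number of cells that carry that sgRNA, whether or not the gene was cut.

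In the textbook account, cyclin D with CDK4 or CDK6 starts to phosphorylate the retinoblastoma protein RB1, and cyclin E with CDK2 completes it. RB1 then lets go of the E2F factors, which turn on cyclin E, cyclin A and the genes of DNA replication. CDKN1B (p27) holds CDK2 complexes back. These kinases act on the cell cycle, whereas CDK12 and CDK13, the partners of cyclin K, act on RNA polymerase II. A549 cells are known to keep RB1 and to have lost CDKN2A, the inhibitor of CDK4 and CDK6.

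Total counts were 16127620 with HQ461 and 14428845 with DMSO. The 40 sgRNAs held 5594 counts with HQ461, or 0.0347% of that column (exact Clopper-Pearson 95% limits of 0.0338% and 0.0356%). With DMSO they held 5085, or 0.0352% (limits of 0.0343% and 0.0362%). Counts were divided by size factors of 0.833 for HQ461 and 1.20 for DMSO, and a fold change compares the normalized counts plus 1, HQ461 over DMSO, on the log2 scale. Every fold change is therefore relative to the typical sgRNA of the library, and scaling by total counts would lower the median of all of them by 0.68 (a shift of -0.68). Counting intervals are exact 95% intervals of the ratio without the added count. They cover counting error only, since PCR reads are not independent molecules, and they say nothing of the spread between cultures. The sgRNAs of a gene are numbered 1 to 4 in the order of their numbers in the table, which gives no guide sequences.

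No shared direction was seen across the 10 genes. CDK2 sgRNAs were higher with HQ461 in 4 of 4 cases, E2F3 had 2 sgRNAs well above and 1 well below the DMSO level, CCND1 sgRNAs barely differed between conditions, and CDK4 and CCNA2 sgRNAs were mostly lower. With raised and lowered standing for a log2 fold change of at least 1 (2-fold) in either direction, 9 of the 40 sgRNAs were raised, where 19.5% of all 76171 targeting sgRNAs were raised. Of the 40, 7 were lowered, where 17.9% of all targeting sgRNAs were lowered. By the median of its 4 sgRNAs, 1 gene (CDK2) was raised against 9.01% of all genes, and 1 (CCNA2) was lowered against 7.69%. The counts among the members are thus close to those of the whole library. The median of the 10 gene values was 0.30, against -0.02 over all genes.

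The library itself was spread widely, which sets the scale for reading any gene. Among 997 non-targeting control sgRNAs, 11.9% were raised and 6.82% were lowered, and the central 95% of them ran from -1.35 to 2.16. Of the 40 member sgRNAs, 7 had under 30 normalized counts with DMSO, a condition met by 8.11% of targeting sgRNAs, and these 7 hold 2 of the raised and 3 of the lowered sgRNAs. Below that count 32.7% of targeting sgRNAs were raised and 29.8% lowered, and at or above it 18.3% and 16.9%. The counting interval lay above 0 for 16 of the 40 sgRNAs and below 0 for 11, while over all targeting sgRNAs these shares were 36.5% and 34.5%.

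**Figure D1:**
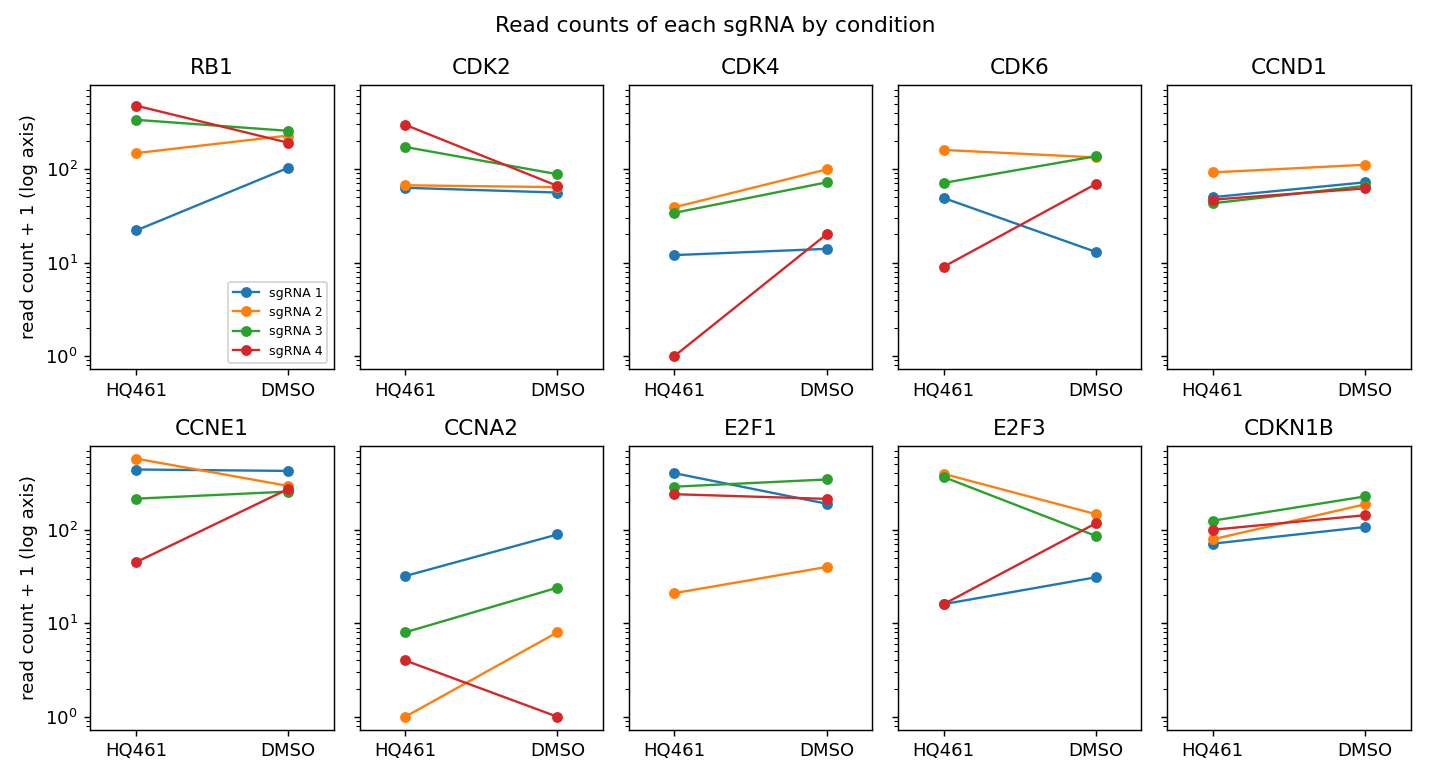
Read counts plus 1 (log axis) of the 4 sgRNAs of each gene with HQ461 and with DMSO, each line joining 1 sgRNA. The CDK2 lines lie higher with HQ461, the CCND1 lines run almost parallel, and lines of CDK6 and E2F3 run in opposite directions.

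RB1, the pocket protein that keeps E2F factors silent, lies on chromosome 13 (48303744 to 48599436, plus strand, GRCh38) and has 27 exons and 928 codons. Its 4 sgRNAs held 21, 147, 335 and 475 counts with HQ461, against 102, 227, 255 and 190 with DMSO. sgRNA 4 was high with HQ461, sgRNA 1 was low, and sgRNA 2 was close to its scaled DMSO level. Their log2 fold changes were -1.71, -0.10, 0.92 and 1.84, so the extremes lie 3.56 apart, at the 83.4th percentile of that distance over genes with 4 sgRNAs. The counting interval of sgRNA 1 ran from -2.51 to -1.07 and that of sgRNA 4 from 1.60 to 2.10. These intervals lie apart, but they treat reads as independent molecules. The central range of non-targeting controls, -1.35 to 2.16, holds sgRNA 4 and leaves sgRNA 1 just outside. Whether the RB1 sgRNAs differ by more than the spread of controls was not tested. The RB1 median, 0.41, stood at the 73.7th percentile of genes and falls below 0 when counts are scaled by their totals.

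By summed counts RB1 had 978 with HQ461 and 774 with DMSO, a log2 ratio of 0.86 (0.73 to 1.00). Without sgRNA 4, whose share of the RB1 counts was 48.6% with HQ461 and 24.5% with DMSO, the ratio was 0.31 (0.14 to 0.49). The pooled RB1 value thus leans on 1 sgRNA.

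CDK2, the kinase of cyclins E and A, lies on chromosome 12 (55966781 to 55972789, plus strand) with 7 exons and 298 codons. Its sgRNAs held 62, 66, 171 and 296 counts with HQ461, against 55, 63, 87 and 65 with DMSO. With HQ461 sgRNAs 3 and 4 stood out, while with DMSO all 4 were alike, between the 13.2nd and 24.5th percentile of targeting sgRNAs by count. On the log2 scale the fold changes were 0.69, 0.59, 1.49 and 2.69, and the counting intervals of all 4 lay above 0, the lowest of them from 0.07 to 1.12. Of the 10 genes CDK2 was the 1 with all sgRNAs above 0, a pattern held by 10.3% of genes with 4 sgRNAs.

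The CDK2 median of 1.09 was the highest of the 10 and ranked 1507 of 19111 genes, at the 92.1st percentile. It lies just past the 2-fold mark, and it is 0.69 with the highest sgRNA of every gene left out and 0.41 when scaled by total counts. In sum CDK2 had 595 counts with HQ461 and 270 with DMSO, a log2 ratio of 1.66 (1.46 to 1.88), or 1.07 (0.81 to 1.34) without sgRNA 4. The neighbours of CDK2 on the chromosome were not raised with it, since 125 other genes starting within 2 Mb had a median of -0.29, with 3 raised and 18 lowered. Over all genes 9.01% were raised and 7.69% lowered.

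**Figure D2:**
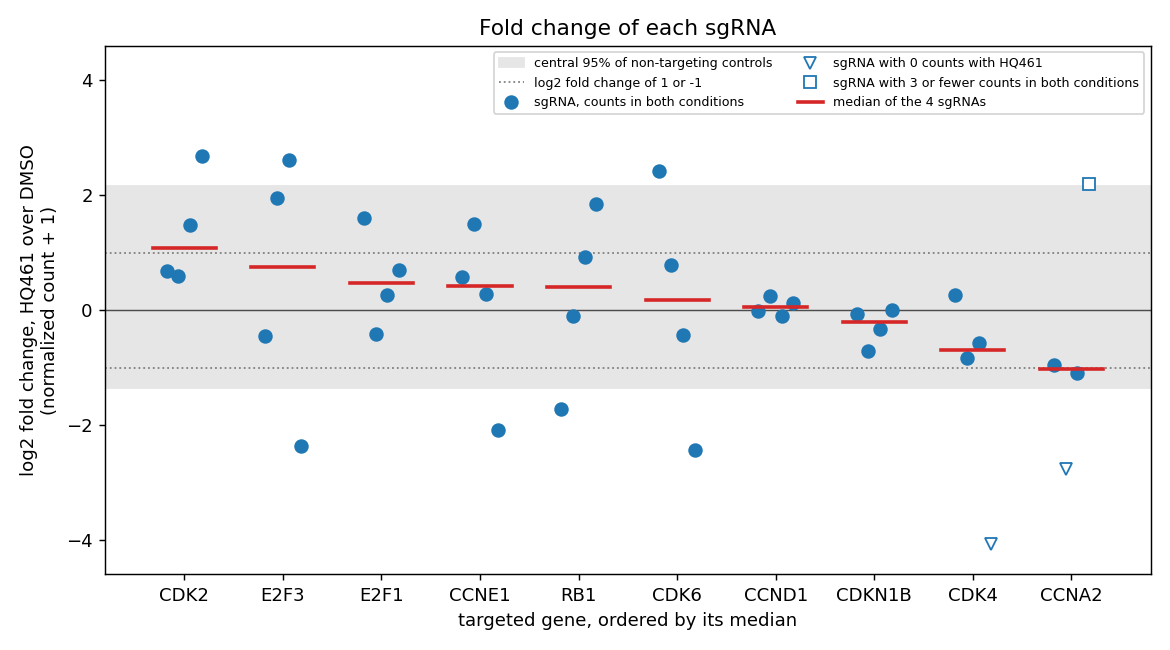
Log2 fold change (HQ461 over DMSO, normalized counts plus 1) of each sgRNA, with genes ordered by their median (red bars) and the grey band holding the central 95% of non-targeting controls. CDK2 is the gene whose 4 sgRNAs all lie above 0, and CCND1 and CDKN1B have the narrowest spread. The medians of RB1, CDK6, CCND1, CCNE1 and E2F1 turn negative when scaled by total counts.

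CDK4 and CDK6, the kinases of D-type cyclins, had lower medians than CDK2. CDK4 (chromosome 12, 57747727 to 57756013, minus strand, 8 exons, 303 codons) held 11, 38, 33 and 0 counts with HQ461, against 13, 98, 71 and 19 with DMSO. With HQ461 all 4 sgRNAs lay at or below the 19.7th percentile of targeting sgRNAs by count. With DMSO sgRNAs 1 and 4 had under 30 normalized counts, while sgRNAs 2 and 3 stood at the 28.9th and 18.5th percentile. The log2 fold changes of sgRNAs 1 to 3 were 0.26, -0.83 and -0.57, and sgRNA 4, at 0 with HQ461, was at least 4.40-fold lower against a floor of 3 counts. The median was -0.70, at the 15.2nd percentile. In sum CDK4 had 82 counts with HQ461 and 201 with DMSO, a log2 ratio of -0.76 (-1.16 to -0.39). No CDK4 sgRNA had a counting interval above 0, but scaling decides whether the gene passes the 2-fold mark, as its median is -1.37 when scaled by total counts. CDK4 and CDK2 lie close together on the chromosome, and the 82 other genes within 2 Mb of CDK4 had a median of -0.31. Of those 82, 2 were raised and 14 lowered, beside 9.01% and 7.69% of all genes. The part of that region in the CDK4 value was not tested.

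CDK6 (chromosome 7, 92604921 to 92836573, minus strand, 8 exons, 326 codons) had sgRNAs that pointed both ways. They held 48, 159, 70 and 8 counts with HQ461, against 12, 132, 136 and 68 with DMSO. sgRNA 4 was low with HQ461 and sgRNA 1 was low with DMSO. Their fold changes on the log2 scale were 2.41, 0.79, -0.43 and -2.44, a distance of 4.86 between extremes that stood at the 94.6th percentile. All 4 counting intervals left out 0, 2 of them above and 2 below. The raised sgRNA rests on 12 counts with DMSO, and without sgRNAs under 30 normalized counts there the CDK6 median of 0.18 becomes -0.43. The summed counts, 285 with HQ461 and 348 with DMSO, gave a log2 ratio of 0.24 (0.01 to 0.47), whose interval starts just above 0.

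CCND1, or cyclin D1, the D-type cyclin that partners CDK4 and CDK6, lies on chromosome 11 (69641156 to 69654474, plus strand, 5 exons, 295 codons). Its sgRNAs held 49, 91, 42 and 46 counts with HQ461, against 71, 110, 65 and 61 with DMSO. The order of the 4 sgRNAs was almost kept, and each was lower in raw count by a like amount, as is the typical sgRNA of the library. The log2 fold changes of -0.01, 0.25, -0.10 and 0.12 lie only 0.35 apart, and 0.583% of genes with 4 sgRNAs have so narrow or a narrower distance. All 4 counting intervals held 0, as they did for 29% of targeting sgRNAs. The sum, 228 with HQ461 and 307 with DMSO, gave a log2 ratio of 0.10 (-0.16 to 0.35), so a difference inside that interval was not detectable at this depth. Other genes starting within 2 Mb of CCND1, 30 in number, had a median of 0.23, with 4 raised and 0 lowered, while all other genes placed on chromosome 11 had 0.29.

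CCNE1, or cyclin E1, the partner of CDK2 at the G1/S boundary, lies on chromosome 19 (29811991 to 29824312, plus strand, 12 exons, 410 codons). Its sgRNAs were plentiful, at 440, 576, 214 and 44 counts with HQ461, against 425, 293, 255 and 272 with DMSO. sgRNA 4 alone was scarce with HQ461, and sgRNA 2 alone was at least 2-fold higher there. This gave log2 fold changes of 0.58, 1.50, 0.27 and -2.08. In sum the gene had 1274 counts with HQ461 and 1245 with DMSO, a log2 ratio of 0.56 (0.45 to 0.67), and 0.08 (-0.06 to 0.22) without sgRNA 2. The median of 0.42 falls below 0 when scaled by total counts. CCNE1 and its kinase CDK2 thus shared a median above 0 but differed in their sgRNAs, 3 of 4 being higher for CCNE1 and 4 of 4 for CDK2.

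CCNA2, or cyclin A2, which serves CDK2 in S phase and CDK1 later, lies on chromosome 4 (121816444 to 121823883, minus strand, 8 exons, 432 codons). It was the scarcest of the 10 genes. Its sgRNAs held 31, 0, 7 and 3 counts with HQ461, against 88, 7, 23 and 0 with DMSO. sgRNA 1 carried 75.6% of them with HQ461 and 74.6% with DMSO. Its log2 fold change was -0.96 and that of sgRNA 3 was -1.10 (counting interval -2.65 to 0.08). sgRNA 2, at 0 with HQ461, was at least 1.62-fold lower, and sgRNA 4 had 3 counts or fewer in both columns, so no fold is given. The median of fitted values, -1.03, counts the gene as lowered, but with sgRNA 2 at its bound and sgRNA 4 left out the median is -0.96. The sum of 41 counts with HQ461 and 118 with DMSO gave a log2 ratio of -0.98 (-1.55 to -0.47), and the scarcity of CCNA2 counts limits how far it can be read.

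E2F1 and E2F3 are activating E2F factors, released when RB1 is phosphorylated. E2F1 (chromosome 20, 33675477 to 33686385, minus strand, 7 exons, 437 codons) held 402, 20, 288 and 239 counts with HQ461, against 189, 39, 344 and 213 with DMSO. sgRNA 1 was high with HQ461 and sgRNA 2 was scarce in both columns. Log2 fold changes came to 1.61, -0.42, 0.27 and 0.69, and 3 of 4 counting intervals lay above 0. The median of 0.48, which falls below 0 when scaled by total counts, was at the 76.7th percentile. The sum of 949 with HQ461 and 785 with DMSO gave a log2 ratio of 0.80 (0.66 to 0.94).

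E2F3 (chromosome 6, 20401879 to 20493714, plus strand, 7 exons, 465 codons) showed the widest disagreement of the 10 genes. Its sgRNAs held 15, 395, 366 and 15 counts with HQ461, against 30, 146, 85 and 116 with DMSO. sgRNAs 2 and 3 were high with HQ461 and sgRNA 4 was low. Their log2 fold changes were -0.45, 1.95, 2.62 and -2.36. The distance of 4.98 between the extremes stood at the 95.1st percentile, and the interval of sgRNA 3 (2.29 to 2.99) and that of sgRNA 4 (-3.31 to -1.64) lie far apart. E2F3 had 791 counts with HQ461 and 377 with DMSO, a log2 ratio of 1.59 (1.42 to 1.78), beside a median of 0.75. It counts as raised by its sum and not by its median. Without the highest sgRNA of each gene the E2F3 median becomes -0.45, and without sgRNAs under 30 normalized counts with DMSO it becomes 1.95.

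CDKN1B, or p27, an inhibitor of CDK2 complexes, lies on chromosome 12 (12685498 to 12722369, plus strand, 3 exons, 198 codons). Its sgRNAs held 70, 78, 124 and 99 counts with HQ461, against 106, 186, 226 and 142 with DMSO. The columns overlapped, and each sgRNA was lower in raw count with HQ461. The log2 fold changes were -0.07, -0.72, -0.34 and 0.01, none past the 2-fold mark, and 2 of 4 counting intervals lay below 0. CDKN1B had the second narrowest distance between extremes after CCND1, at 0.73 and the 4.81st percentile. In sum it had 371 counts with HQ461 and 660 with DMSO, a log2 ratio of -0.30 (-0.49 to -0.12).

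**Figure D3:**
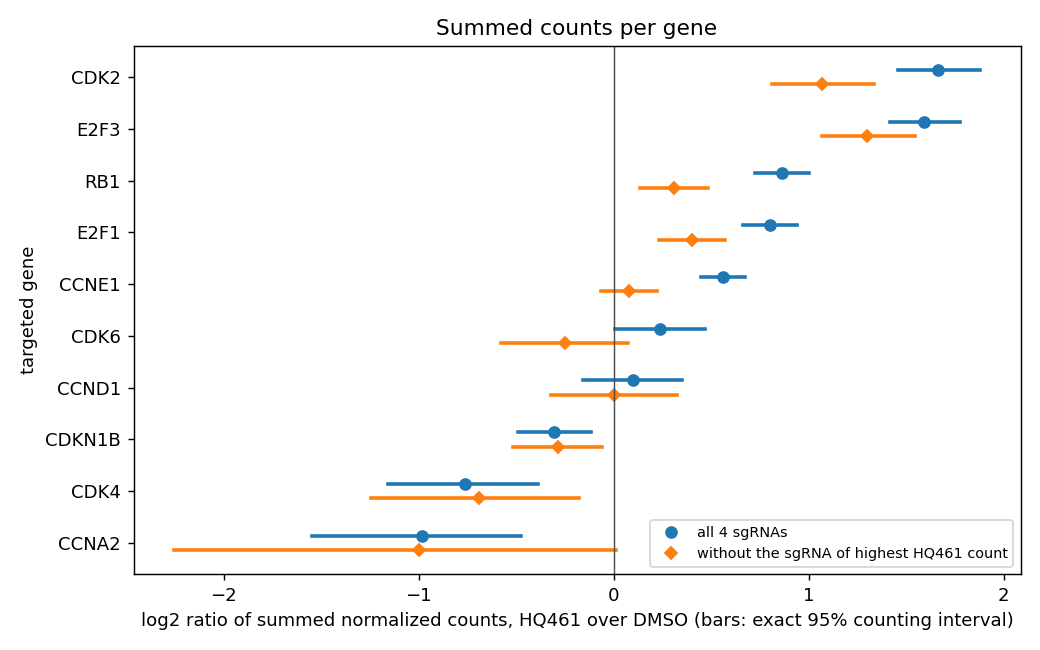
Log2 ratio of summed normalized counts (HQ461 over DMSO) per gene, with exact 95% counting intervals, for all 4 sgRNAs (blue) and without the sgRNA of highest HQ461 count (orange). The order runs from CDK2 at 1.66 and E2F3 at 1.59 to CCNA2 at -0.98, and leaving out 1 sgRNA takes RB1 to 0.31 and CCNE1 to 0.08.

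Ordered by summed counts, the log2 ratios of the 10 genes ran from CDK2 and E2F3 through RB1, E2F1, CCNE1, CDK6, CCND1, CDKN1B and CDK4 to CCNA2. Of 9 pairs of neighbours in that order, 1 had counting intervals that did not overlap, E2F3 and RB1. The intervals of the other neighbours overlapped, which does not show that they were alike. Within genes, the distance between the extreme sgRNAs exceeded the library median of 2.14 in 6 of the 10, whereas the gene medians ran from -1.03 to 1.09. At least 1 raised and at least 1 lowered sgRNA were found together in 5 of the 10 genes, against 21.7% of genes with 4 sgRNAs. Those 5 include CCNA2, whose raised sgRNA had 3 counts with HQ461 and 0 with DMSO. With sgRNAs of at least 30 normalized counts with DMSO, 3 of 9 genes (RB1, CCNE1 and E2F3) still held both, against 17.8% of genes. Only CCND1 and CDKN1B had no sgRNA past the 2-fold mark, a state shared by 18.6% of genes with 4 sgRNAs.

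The levels with DMSO also differed by gene. By summed counts with DMSO, CCNA2 stood at the 2.92nd percentile of genes, CDK4 at the 5.68th, CDK2 at the 8.41st, CCND1 at the 10.3rd, CDK6 at the 12.9th and E2F3 at the 15.2nd. CDKN1B stood at the 49.4th, RB1 at the 61.2nd, E2F1 at the 62.2nd and CCNE1 at the 90.2nd. With HQ461, CDK2 stood at the 52.4th percentile and E2F3 at the 67.2nd, while CCNA2 and CDK4 stood at the 1.51st and 3.43rd. No library from the start of treatment was analysed here, so a low starting amount of an sgRNA and its loss during growth cannot be told apart.

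Relatives of the members were read against the whole library, where 9.01% of genes were raised and 7.69% lowered by their median. Of the 13 pocket protein, E2F and DP genes, 0 were raised and 0 lowered, and the median of the list was -0.12. RBL1 and RBL2, the other pocket proteins, had medians of -0.54 and -0.13, against 0.41 for RB1. E2F2, E2F4 and E2F5 had -0.12, 0.08 and -0.24, and the dimer partners TFDP1 and TFDP2 had 0.38 and -0.95. Among the 10 G1/S cyclins and kinases, 1 was raised (CDK2) and 1 lowered (CCNA2), and the others that are not members had medians of 0.15 (CCND2), -0.24 (CCND3), 0.28 (CCNE2) and -0.73 (CCNA1). None of these 4 cyclins crossed the 2-fold mark. Of 7 CDK inhibitors 0 were raised and 0 lowered, with a list median of 0.55, which is the value of CDKN2A. CDKN1A had 0.57, CDKN1C 0.75, CDKN2B -0.27, CDKN2C 0.62 and CDKN2D -0.19, against -0.20 for CDKN1B. CDKN2A, lost in A549, had a median of 0.55, and its sgRNAs ranged from -0.62 to 2.05 with 219 to 1462 counts with HQ461 and 487 to 845 with DMSO. The sgRNAs of a gene known to be lost in these cells were thus spread over a range as wide as that of several members. Of genes with no known role in A549, MYOD1 had a median of -1.29 and INS had 0.34.

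**Figure D4:**
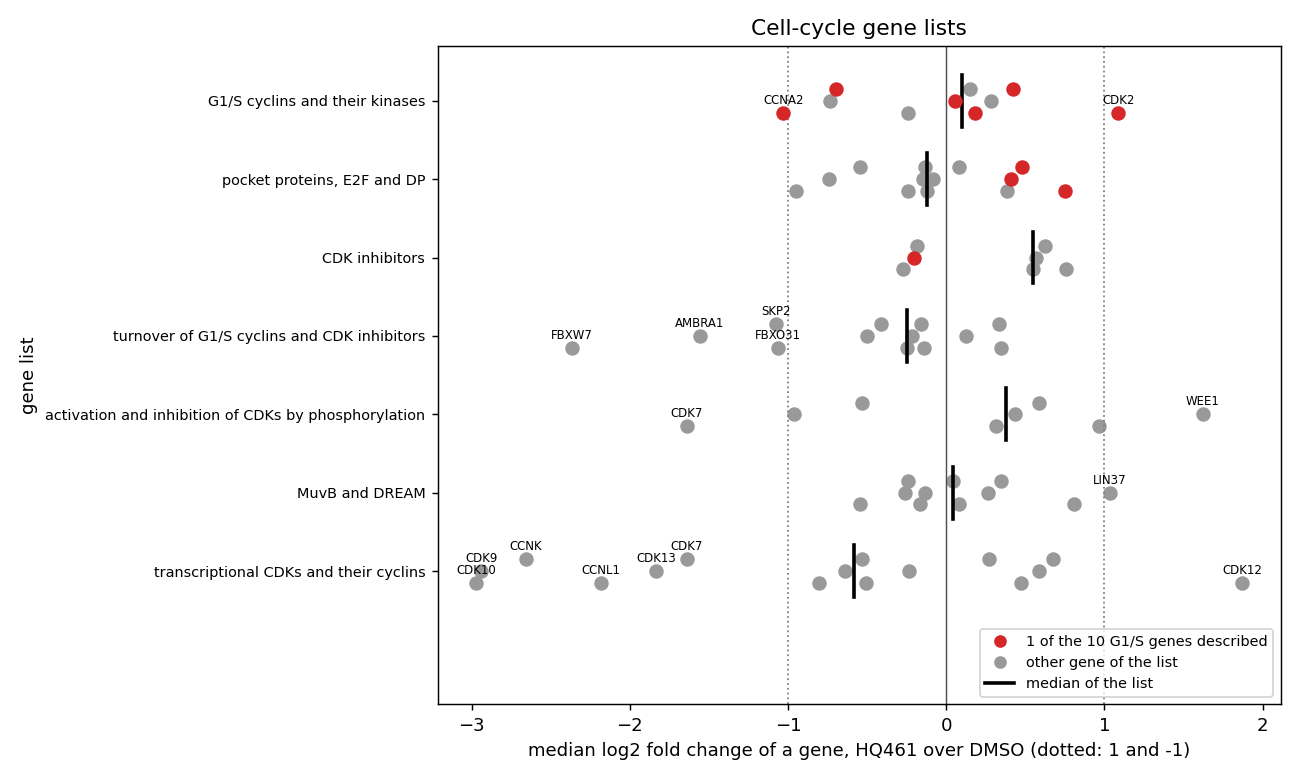
Median over sgRNAs of the log2 fold change, HQ461 against DMSO, for each gene in 7 cell-cycle and kinase lists, with the 10 described genes in red, list medians as black bars and gene names where a median is past 1 or -1. FBXW7 and AMBRA1 lie below -1, and WEE1 and CDK12 above 1.

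Genes that control the stability of these cyclins and inhibitors were described in the same way. In a list of 13 turnover genes 0 were raised, against 9.01% of all genes, and 4 were lowered, against 7.69%, and the list median was -0.25. FBXW7, the receptor that sends cyclin E for degradation, was lowered in 4 of 4 sgRNAs, as were 0.488% of genes with 4 sgRNAs. It had 33 counts in sum with HQ461 and 253 with DMSO (log2 ratio -2.38, -2.98 to -1.88). Its sgRNA 2 rests on 1 count with HQ461 and 7 with DMSO, and its counting interval, -7.77 to 0.68, holds 0. sgRNA 3 had 0 with HQ461 and 28 with DMSO. Both of these sgRNAs had under 30 normalized counts with DMSO, and FBXW7 was named with counts after its values were seen. AMBRA1, the CUL4-DDB1 receptor for D-type cyclins, had 193 counts with HQ461 and 695 with DMSO, and 3 of 4 sgRNAs were lowered (log2 ratio of sums -1.32, -1.56 to -1.09), where 3.74% of genes had at least 3 lowered. SKP2, the receptor for CDKN1B, had a median of -1.08 but a log2 ratio of sums of -0.65 (-0.97 to -0.35), short of the 2-fold mark. FBXO31, another cyclin D receptor, had a median of -1.06 but a log2 ratio of sums of 1.73, so its direction depends on the summary used. Of its 4 sgRNAs 1 was raised, at 3.79, and 2 were lowered. CCND1 and CCNE1 themselves, the substrates, had medians of 0.05 and 0.42. Those medians turn negative when scaled by total counts.

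In the list of 11 MuvB and DREAM genes, RBL1 and RBL2 among them, LIN37 was the 1 raised gene, at 1.03, and 0 were lowered. Over all genes 9.01% were raised, a share that 1 of 11 does not set apart, and 7.69% were lowered.

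The transcriptional kinases, CDK12 and CDK13 among them, were set beside the G1/S genes. Of 16 transcriptional CDK and cyclin genes with counts here 1 was raised and 6 were lowered, with a list median of -0.58, against 1 and 1 of the 10 members, and against 9.01% and 7.69% of all genes. CCNK held 113, 23, 4 and 0 counts with HQ461, against 227, 177, 84 and 8 with DMSO. CDK13 held 8, 1, 12 and 8 with HQ461, against 32, 98, 51 and 56 with DMSO, and all 4 of its sgRNAs were lowered. CDK7, CDK10 and CCNL1 had medians of -1.64, -2.97 and -2.18, and CDK9 had 1 count with HQ461 and 20 with DMSO (log2 ratio -3.00, -9.17 to -1.15). For CDK7, with 3 sgRNAs, the log2 ratio of sums was -0.80 (-1.41 to -0.25), short of the 2-fold mark. CDK12 had 1322 counts with HQ461 and 288 with DMSO, a log2 ratio of sums of 2.72 (2.54 to 2.91). Its sgRNA 1 held 907 of the counts with HQ461 and 69 of those with DMSO. The CDK12 median was 1.87, lower than the ratio of sums, and its sgRNAs ranged from 1.03 to 4.22. The 83 other genes within 2 Mb of CDK12 had a median of 1.44, with 58 of them raised, and the part of that region in the CDK12 value was not tested. With 1 column per condition the difference between the member genes and these kinases was not tested either.

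None of the members lay among neighbours whose median was past the 2-fold mark, though more neighbours of CDK2 and of CDK4 were lowered than raised. The median of the genes within 2 Mb lay between -0.31 (CDK4) and 0.23 (CCND1) for all 10. CDK2 and CDK4 had medians of 1.09 and -0.70, on the same chromosome, where the other genes had -0.22.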

How the data were processed

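Genomic DNA of A549 cells was amplified by PCR and sequenced, and the authors counted reads per sgRNA with MAGeCK 0.5.9.2. The deposited counts are raw and hold 1 column per condition for 4 libraries. Whether a column holds both libraries of its condition or 1 of them was not given in the sources used here. The members and gene lists were chosen with earlier results of these data known. Of 77441 sgRNAs, 273 with 0 counts in both columns were left out. Size factors were median ratios, 1 was added to normalized counts, and a gene's value was the median over its sgRNAs. Fold changes were described with no test, and the MAGeCK test was not run. Exact Clopper-Pearson intervals cover counting error only. The fold change script was tested on simulated data. Named genes were all members, their paralogs and partners, CDK12, CDK13 and CCNK, and list genes past 2-fold, except for some whose results are not reported here. Naming FBXW7 and AMBRA1 with counts, and MTOR and TSC2, was decided after their values were seen. GENCODE 44 (GRCh38) gave positions for 17761 genes by symbol and 952 by an older symbol, and 398 had none. Python 3.11.15, numpy 2.4.6, pandas 2.3.3, scipy 1.17.1 and edgeR 4.0.16 (TMM factors only, R 4.3.3) were used. Alternatives were other scalings, a pseudocount of 5, a minimum of 30 normalized counts with DMSO, summed counts, removal of the highest sgRNA and a log2 threshold of 2.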

Additional observations from a re-analysis of the deposited data

How the results depend on the processing

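Scaled by total counts, 15 sgRNAs of the members were lowered in place of 7, 0 member genes were raised and 2 lowered (CDK4 and CCNA2), and the median over the members was -0.39 in place of 0.30. Medians of RB1, CDK6, CCND1, CCNE1 and E2F1 turned negative. Over all genes 520 were then raised and 6138 lowered, against 1722 and 1470, and 7209 and 29141 targeting sgRNAs, against 14866 and 13658. Scaling by non-targeting controls left 0 member genes lowered, as did scaling without chromosomes 11 and 17, a setting chosen after the data were seen, where the members' median was 0.37. TMM changed no member call.

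A minimum of 30 normalized counts with DMSO, which left 33 member sgRNAs, gave 4 of them lowered, 2 member genes raised (CDK2 and E2F3), 0 lowered and a median of 0.23. Summed counts gave the same 2 member genes raised, 0 lowered, a median of 0.40, and 3460 genes raised and 704 lowered. With the highest sgRNA of every gene left out, 0 member genes were raised, the median was -0.22, and 996 genes were raised and 3319 lowered, as that setting removes the upper values by construction. A pseudocount of 5 left 0 member genes lowered. At a log2 threshold of 2, 4 member sgRNAs were raised, 0 member genes were raised and 0 lowered, with 5052 and 3710 targeting sgRNAs and 281 and 173 genes past it. Apart from the scale and construction, the cause of these shifts was not tested.

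No paired analysis was possible because the count table has only 1 column for each condition. Leaving out a replicate and the edgeR fit with a replicate block were not run for the same reason. Low counts with DMSO limit genes such as CCNA2, with 118 counts over its 4 sgRNAs.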

Other observations

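Genes upstream of cyclin D and on chromatin are described here with no test, beside shares of 9.01% raised and 7.69% lowered over all genes. In a list of 17 growth signalling genes 2 were raised and 2 lowered by their median, near those shares. SOS1, which activates RAS, had a median of 1.11 with 3 of 4 sgRNAs raised, and RPTOR, a subunit of mTORC1, had 1.12, its sgRNAs ranging from 0.12 to 5.30. RPTOR lies on chromosome 17, where the other genes had a median of 0.97, and the part of that in its value was not tested. TSC1, which restrains mTOR, had a median of -1.69, TSC2, its partner, had 0.33, and MTOR had -0.14. For TSC1 the log2 ratio of sums was -0.88 (-1.40 to -0.40), short of the 2-fold mark, and 2 of 4 sgRNAs were lowered. Among 10 chromatin genes 2 were raised and 1 lowered by their median. SUV39H1, a histone methyltransferase that binds RB1, had a median of 1.04, its sgRNAs ranging from -0.52 to 3.95. HDAC2, a histone deacetylase, had a median of -1.49, its sgRNAs ranging from -4.94 to 1.39. Its log2 ratio of sums was -0.96, short of the 2-fold mark.

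Of 9 G2/M kinases and cyclins 0 were raised and 2 lowered by their median, of 8 genes that phosphorylate or dephosphorylate CDKs 1 was raised and 1 lowered, and of 9 regulators of the anaphase-promoting complex 1 was raised and 1 lowered. Over all genes 9.01% were raised and 7.69% lowered. CDK1, the mitotic kinase and a partner of CCNA2, had a median of -1.75, with 3 counts in sum with HQ461 and 36 with DMSO, a log2 ratio of -2.75 with a counting interval from -5.40 to -1.40. WEE1, which inhibits CDK1 and CDK2, had a median of 1.62, and CDK7, the kinase that activates them, had -1.64. The log2 ratio of sums of CDK7 was -0.80, short of the 2-fold mark. UBE2C and FZR1, which serve that complex, had medians of 1.10 and -1.39, and BUB1B, a spindle checkpoint gene, had -1.29. For FZR1 the log2 ratio of sums was -0.52 (-0.70 to -0.34), short of the 2-fold mark. UBE2C sgRNAs ranged from 0.28 to 4.54.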
